A study of Homo sapiens with 8 samples.

Results

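DNA repair genes were followed through the splicing of their transcripts in JSL1, a single-clone T lymphocyte line that descends from Jurkat. Members were taken from a list of 50 genes of DNA repair and damage signalling, as every local splicing variation that the authors' deposited tables carry under their symbols. In all, 49 of the 50 genes were found, of 11431 genes in either table, and MLH3, a mismatch repair gene, had no entry. A local splicing variation (LSV) is the set of splice junctions, and at times 1 retained intron, that leave from or arrive at 1 exon. Each junction or intron has a share in percent, its expected percent selected index, and the shares of an LSV compete with each other. The shares in the tables run from 2.5% to 97.5%.

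The study asked which transcripts of T cells depend on CELF2, a splicing regulator that binds RNA, with 8 strand-specific RNA-seq libraries. The 4 groups, of 2 libraries each, were unstimulated control cells, unstimulated cells depleted of CELF2, control cells given the phorbol ester PMA at 20 ng/mL for 48 h, and depleted cells given the same PMA. Depletion used stably integrated lentiviral short hairpin RNAs against CELF2 that doxycycline induces. The sources used here do not state the doxycycline dose and time, what the control cells received in its place, or if libraries that share a group came from separate cultures.

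The authors pooled both libraries of a group, so every share below is 1 value per group with no replicate error, and no test over samples could be made. Depletion was compared within each state through the authors' posterior probability that a share moved by 20 percentage points or more, and an LSV was called where any of its values reached 0.95. That probability is not a p-value, and PMA against no PMA has none. The tables give no read counts, so the depth behind a share is unknown, and no expression values, so the loss of CELF2 itself could not be checked in them. CELF2 has 11 LSVs without PMA and 16 with PMA, and 1 of its junctions (chr10:11371060-11372419) stood at 91.0% in unstimulated control, 92.9% in unstimulated depleted, 24.5% in PMA control and 92.1% in PMA depleted cells. LSVs were listed for 10 of 12 T cell marker genes (not for TRAC and CD28), for 1 of 5 B cell markers (CD79A), and for 0 of 5 myeloid and 0 of 5 fibroblast or epithelial markers. These are bulk libraries, in which a shift in some of the cells and a smaller shift in all of them cannot be told apart.

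DNA repair is divided by the lesion it mends. The kinases ATM and ATR sense breaks and stalled forks and act through CHEK1 and CHEK2, homologous recombination copies a broken strand from its sister with BRCA1, BRCA2 and their partners, and end joining ligates ends directly. The Fanconi anaemia proteins unhook crosslinks between strands, RecQ helicases unwind recombination intermediates, and excision and mismatch repair replace damaged or wrong bases. T cells use end joining to assemble their receptor genes.

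The members were rich in LSVs: the median member had 13 in either state, from 1 in XRCC4 to 46 in FANCA, against a median of 7 over all genes. The 106 other repair genes read below had medians of 8.5 without PMA and 9.0 with PMA. Depletion without PMA gave a called LSV in 5 of 49 members, namely ATM, CHEK1, FANCA, FANCG and RECQL4, where 6.20% of all genes were called. Depletion with PMA gave one in 10 of 49, namely ATR, BRCA1, CHEK1, FANCA, LIG4, MUTYH, POLL, RAD51D, RAD52 and RECQL4, against 10.6% of all genes. CHEK1, FANCA and RECQL4 were called in both states, 12 members in either, and 38 of the 50 on the list, MLH3 among them, in neither. The members hold more LSVs than the average gene, and the part of that in these shares was not tested. Each state gave 23 called LSVs of members, of 710 without PMA and 712 with PMA. Of all LSVs, 0.985% were called without PMA and 1.87% with PMA. An intron can enter these counts through 2 LSVs, as FANCA intron 38 did. Of the called member LSVs, 9 without PMA and 11 with PMA belonged to FANCA and 11 and 1 to RECQL4. The tables mark an LSV as de novo where it holds a junction outside the annotation, and all LSVs with a retained intron carry that mark, which 64.4% of member LSVs and 66.9% of all LSVs had without PMA. All 23 LSVs called without PMA carried it, so that without such LSVs no member was called in that state (2.86% of all genes) and 5 were with PMA (4.99%).

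The largest junction difference per gene had a higher median over the members than over all genes in both depletion contrasts, and also for PMA in control cells (10.4 against 7.9 points) and in depleted cells (10.4 against 7.5). A maximum over more LSVs per gene favours the members. Without PMA the median member reached 10.5 percentage points and the median gene 8.0. With PMA these medians were 16.2 and 9.7. A junction that differed by at least 20 points was found in 11 of 49 members without PMA, against 15.2% of all genes, and in 18 of 49 with PMA, against 21.2%. By role, the medians with PMA ran from 28.6 points in end joining and 25.1 in RecQ helicases down to 8.9 in nucleotide excision repair and 6.7 in mismatch repair. Without PMA the Fanconi anaemia genes had the highest median, 21.0 points, and nucleotide excision repair the lowest, 5.0. Each role holds only 2 to 9 genes of the list, and differences between roles were not tested. UNG, the glycosylase that removes uracil from DNA, had 6 LSVs and a largest difference of 0.0 points in all 4 contrasts.

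**Figure D1:**
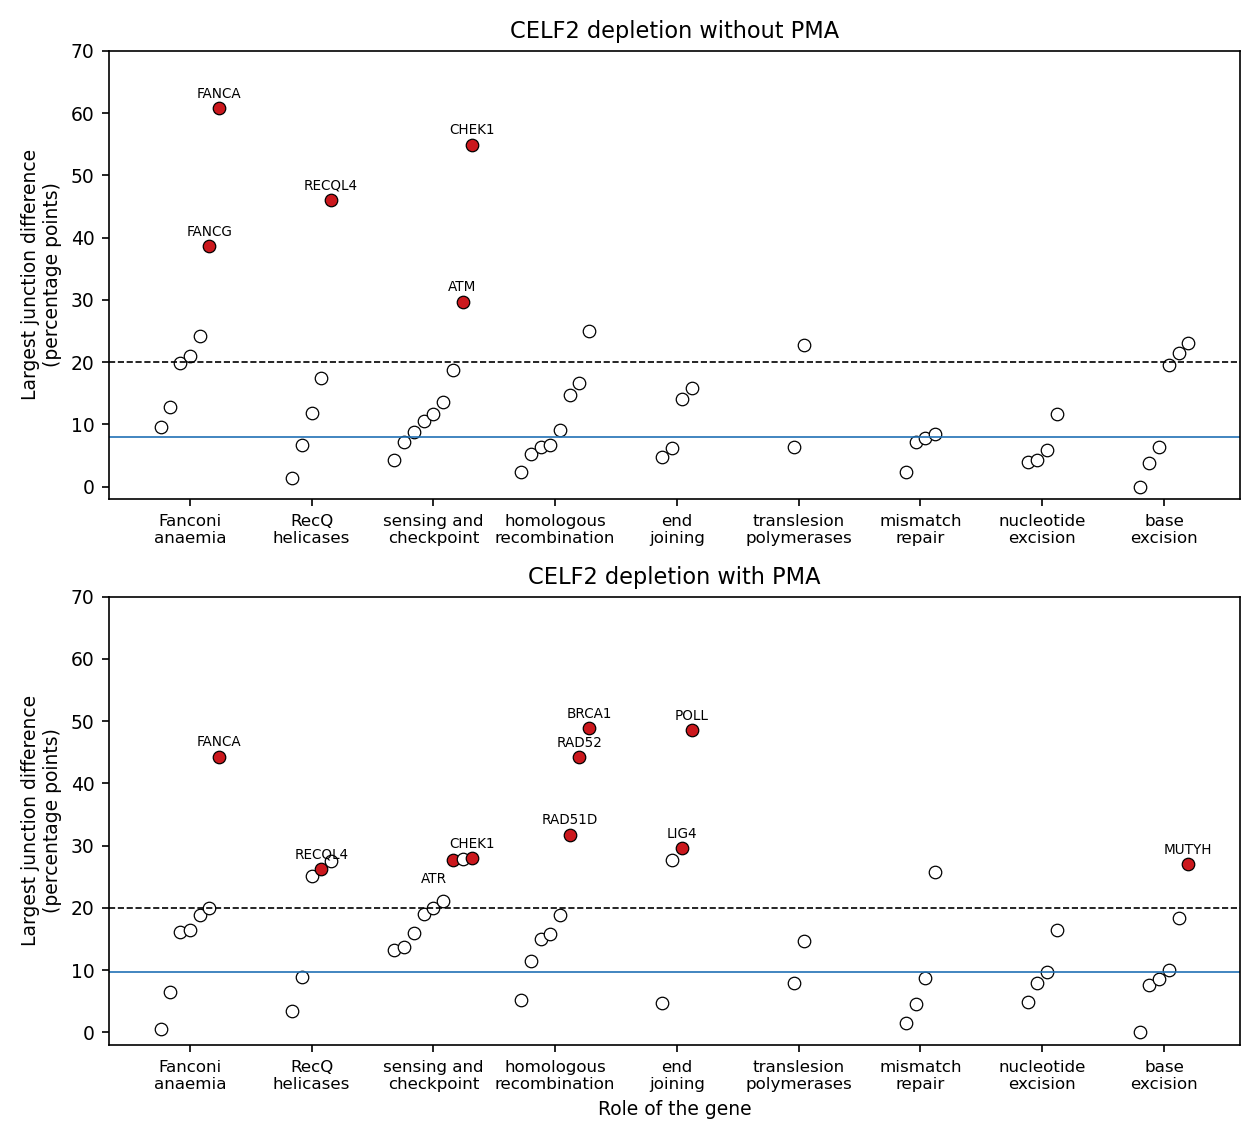
Each circle is 1 member gene; the y axis is its largest absolute junction difference between depleted and control cells in percentage points, without PMA above and with PMA below, by role. Red circles with names are genes with a called LSV, the dashed line is 20 points and the blue line the median over all genes (8.0 and 9.7). Called genes lie in 3 roles without PMA and in 6 with PMA.

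FANCA, part of the Fanconi anaemia core complex that ubiquitinates FANCD2 and FANCI, changed more than any other member without PMA, and in retained introns. It lies on the minus strand of chromosome 16, with 43 exons in the GENCODE transcript that intron and exon numbers refer to. In its last introns, 38 to 42, the retained share rose in depleted cells without PMA, and with PMA all but intron 41 had a called rise. Intron 38 is listed whole and introns 39 to 42 only in part, by stretches of 35 to 235 nt. Intron 38 (chr16:89806508-89807211, mean of 2 LSVs) stood at 22.8% in unstimulated control, 82.0% in unstimulated depleted, 36.8% in PMA control and 64.7% in PMA depleted cells. Over the 5 introns the unstimulated control values ran from 18.8% to 34.1% and the unstimulated depleted values from 66.2% to 83.5%, with no overlap between them. With PMA they ran from 34.2% to 44.4% in control and from 50.9% to 72.3% in depleted cells, again without overlap. The median difference over the 5 introns was 49.8 points without PMA and 27.1 with PMA, where depleted cells were lower and control cells higher than in the unstimulated state. The junctions that remove these introns moved the opposite way within the same LSVs, the one across intron 38 (chr16:89806507-89807212) from 80.4% to 19.6% without PMA. All 6 LSVs of members that were called in both states lie here.

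These 5 introns lie inside the last exon of ZNF276 (chr16:89804384-89807311), a gene on the opposite strand that runs into the end of FANCA. The ZNF276 intron just before that exon (chr16:89804314-89804383) had retained shares, in 1 LSV, of 40.7% in unstimulated control, 10.9% in unstimulated depleted, 27.1% in PMA control and 24.6% in PMA depleted cells. It fell on depletion without PMA, with a probability that rounds to 1 in the authors' deposited table, and with PMA the probability was 1.88e-05. In a further LSV the same intron stood at 28.6% in unstimulated control and 8.0% in unstimulated depleted cells. The probability there was 0.825 in the authors' deposited table. The libraries were strand-specific, the sources used here do not say whether the authors' intron values used the strand, and the part of ZNF276 reads in the FANCA values was not tested. Without LSVs under opposite-strand exons, FANCA was no longer called without PMA (highest probability 0.609 in the authors' deposited table) and stayed called with PMA.

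The 5 other FANCA introns, none under an opposite-strand exon, gave another picture: a median difference of -1.1 points without PMA and 21.0 with PMA. The listed part of intron 24 (chr16:89836871-89836971), in the LSV listed in both tables, stood at 27.2% in unstimulated control, 16.4% in unstimulated depleted, 22.9% in PMA control and 59.3% in PMA depleted cells, and rose with PMA. Its neighbour intron 25 (chr16:89836433-89836573) had mean shares of 11.7%, 9.5%, 5.6% and 31.2% in the same order, and an 86-nt retained part within intron 10 (chr16:89865488-89865573) of 11.0%, 9.9%, 2.7% and 23.8%. In each of these values the PMA depleted group was the high one and the other groups lay below 30%. A further LSV with intron 24, listed only with PMA and also called, held 52.8% in control and 97.1% in depleted cells. Introns 16 and 34 stayed between 2.5% and 2.8% in every group. FANCA also had a called junction change with PMA at intron 10: the junction across the whole of it (chr16:89862426-89865574) stood at 90.1% in unstimulated control, 96.4% in unstimulated depleted, 54.3% in PMA control and 93.5% in PMA depleted cells. The alternative, which joins an exon within that intron (chr16:89862426-89865359), took the other 45.7% in PMA control cells and at most 9.9% elsewhere.

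RECQL4, a RecQ helicase that acts at replication origins, had 15 listed introns, and 6 of them were higher by at least 20 points in unstimulated depleted cells. All 6 lie in the 3′ stretch of the gene, between introns 13 and 20 of a reference transcript of 21 exons. Intron 19 (chr8:145737173-145737284) stood at 5.2% in unstimulated control, 49.3% in unstimulated depleted, 13.5% in PMA control and 26.2% in PMA depleted cells. Intron 18 had shares of 14.7%, 51.2%, 22.9% and 28.2% in the same order, and intron 20 of 2.6%, 34.0%, 2.8% and 14.7%. Unstimulated depleted cells were thus the high group in each. Introns 15 and 16 lie under exons of the opposite-strand gene AC084125.4 and differed by 32.6 and 39.3 points. The other 4 do not lie under such exons and differed by 30.4 to 44.2 points. The part of opposite-strand reads in the RECQL4 values was not tested. Further 5′, introns 4, 5, 7, 8 and 11 differed by -3.7 to 6.6 points without PMA. With PMA, in means over the LSVs that share an intron, only intron 13 passed 20 points (6.7% in control, 27.1% in depleted cells), while 1 LSV of intron 15 reached 44.6% from 20.8%, and the sole called LSV was at intron 5, whose junction fell from 92.1% to 65.8%. RECQL4 values with and without PMA come from different libraries and no probability compares them, so this difference between the states has no test.

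**Figure D2:**
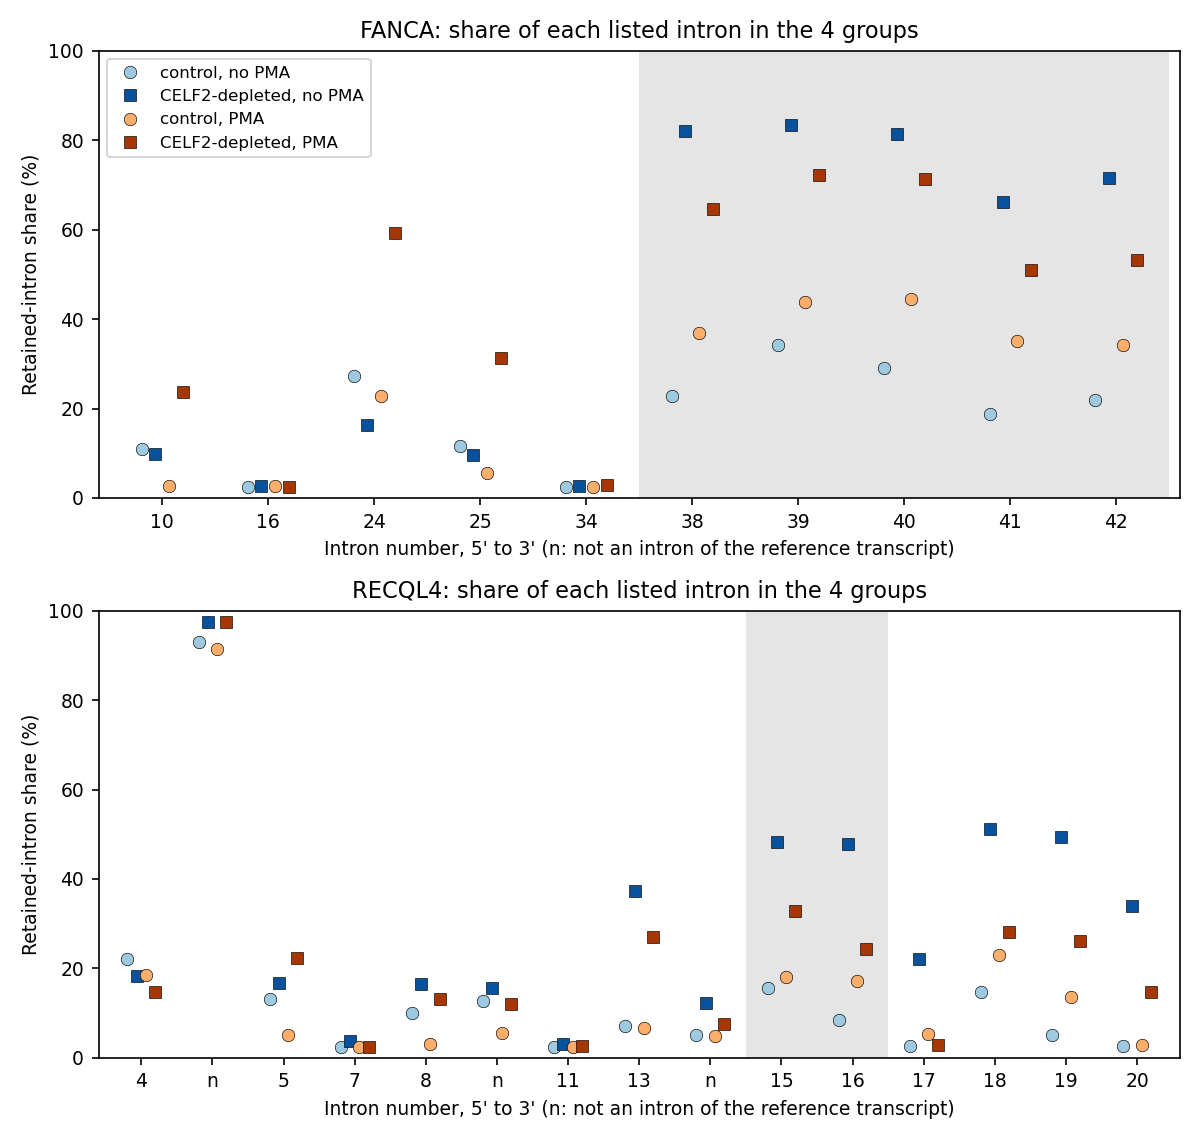
Retained-intron share in percent (y axis) of every intron or intron part listed in both tables for FANCA (above) and RECQL4 (below). They are ordered from the 5′ to the 3′ end along the x axis and averaged over the LSVs that share them. Circles are control and squares depleted cells, blue without and orange to brown with PMA, and grey marks introns under exons of an opposite-strand gene. The dark blue squares stand above all other groups in FANCA introns 38 to 42 and RECQL4 introns 13 and 15 to 20, and the brown squares in FANCA introns 10, 24 and 25. By smaller margins the dark blue squares are also highest in other RECQL4 introns, such as intron 8 (16.5% against at most 13.2%).

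Other Fanconi anaemia and RecQ genes moved less without PMA. FANCG, another core complex subunit, had 1 called LSV, listed only without PMA, in which a 37-nt intron part (chr9:35079691-35079727) rose from 53.0% to 91.6%. A further LSV with that part, listed in both states and not called, gave 73.5% in unstimulated control, 96.0% in unstimulated depleted, 71.1% in PMA control and 87.4% in PMA depleted cells. FANCI, a substrate of the core complex, missed the call without PMA with a probability of 0.920 in the authors' deposited table. Its junction (chr15:89788542-89790860) was at 39.7% in unstimulated control, 15.5% in unstimulated depleted, 39.3% in PMA control and 42.8% in PMA depleted cells, so that only the unstimulated depleted group stood low. FANCC had its low group elsewhere, with 67.7% in unstimulated control and 88.7% to 89.9% in the others for its first intron's junction. RECQL5, a further RecQ helicase, reached a probability of 0.945 with PMA in the authors' deposited table, at intron 12 with junction shares of 95.9% in control and 70.8% in depleted cells. RECQL, also a RecQ helicase, reached 0.937 with PMA in that table and had a junction past 20 points there. BLM and WRN, mutated in Bloom and Werner syndromes, had no probability above 0.0102 in the same table.

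Among the damage sensors, CHEK1, the kinase downstream of ATR, was called in both states at different exons. Without PMA its first intron's junction (chr11:125495907-125496644) was 71.3% in control and 16.4% in depleted cells, and another junction into the same exon (chr11:125496537-125496644), which is no intron of the reference transcript, 2.5% and 42.8%. That LSV was not listed with PMA. With PMA the junction that skips exon 3 (chr11:125496728-125499127) rose on depletion, with 9.5% in control cells and 37.5% in depleted ones and a probability of 0.983 in the authors' deposited table. Without PMA it stood at 22.9% in control and 28.9% in depleted cells, between both PMA groups. The skipped exon is wholly coding and has 224 nt, which is not a multiple of 3, so that its loss shifts the reading frame.

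ATM, the kinase that responds to double-strand breaks, moved alike in both states. Its junction across intron 27 (chr11:108155200-108158327) stood at 62.9% in unstimulated control, 92.6% in unstimulated depleted, 64.1% in PMA control and 91.9% in PMA depleted cells. Both depleted groups lay above both control groups. The change was called without PMA (0.965) and fell short with PMA (0.918, both from the authors' deposited table). ATR, the kinase of stalled forks, was called only with PMA: the junction across intron 30 (chr3:142218560-142222204) had 94.3% in unstimulated control, 97.3% in unstimulated depleted, 69.6% in PMA control and 97.3% in PMA depleted cells. A retained intron part in the same LSV stood at 21.2% in PMA control cells and at most 4.7% in the other groups. CHEK2, MDC1, TP53BP1, RAD50, MRE11A and NBN were not called in either state, although RAD50 and NBN, of the complex that binds broken ends, reached 0.707 and 0.766 with PMA in the authors' deposited table.

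In homologous recombination no member was called without PMA (6.20% of all genes) and 3 of 8 were with PMA (10.6% of all genes). BRCA1, which directs broken ends to recombination, had 2 called LSVs around exons 8 and 9 of the 24 in its reference transcript. The junction that skips both exons (chr17:41246877-41251792) stood, in the LSV read from the downstream exon, at 29.1% in unstimulated control, 16.3% in unstimulated depleted, 56.7% in PMA control and 15.0% in PMA depleted cells. It fell on depletion with PMA, with a probability of 0.994 in the authors' deposited table. The junction from exon 7 into exon 8 (chr17:41249306-41251792) gave 67.9% in unstimulated control, 73.0% in unstimulated depleted, 36.8% in PMA control and 85.7% in PMA depleted cells, and rose on depletion with PMA. PMA control cells were the highest group in the first and the lowest in the second. The 2 exons hold 46 and 77 coding nt, together 123 nt or 41 codons, so that skipping both keeps the frame. Elsewhere in BRCA1 an uncalled junction (chr17:41228628-41234421) was at 22.9% in unstimulated depleted cells and between 44.8% and 52.6% in the other groups.

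The exons whose inclusion differed in BRCA1 and CHEK1 are shown because they are what the cells kept or left out. They were read from the GENCODE 29 transcripts (build GRCh38) on the transcribed strand, as DNA letters, and capitals mark TGT, the DNA form of the UGU that CELF proteins are known to bind.
BRCA1 exon 8: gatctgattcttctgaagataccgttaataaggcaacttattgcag
BRCA1 exon 9: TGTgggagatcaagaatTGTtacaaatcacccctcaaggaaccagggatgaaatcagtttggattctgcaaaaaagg
CHEK1 exon 3: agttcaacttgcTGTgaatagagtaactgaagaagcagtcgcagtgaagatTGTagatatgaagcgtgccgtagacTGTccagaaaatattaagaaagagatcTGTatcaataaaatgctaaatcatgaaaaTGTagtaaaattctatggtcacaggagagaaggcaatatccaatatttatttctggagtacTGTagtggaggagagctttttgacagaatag
TGT was searched on the transcribed strand only. BRCA1 exon 8 holds 0, as do most exons of its length, since 40.3% of 360 hold any. BRCA1 exon 9 holds 2, where 64.6% of 944 exons of its length hold any and 32.5% as many. CHEK1 exon 3 holds 6, where 92.3% of 169 exons of its length hold any and 14.2% as many. A match is a count of letters in the exon alone and no binding site, and the introns beside the exons were not read.

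RAD52, which anneals single strands, had 3 called LSVs with PMA. The junction across intron 6 (chr12:1034691-1036311) stood at 89.0% in unstimulated control, 86% in unstimulated depleted, 47.0% in PMA control and 91.2% in PMA depleted cells, and its only alternative, which uses a splice site within the intron, took the remaining 53.0% in PMA control cells. The retained share of the listed part of intron 8 (chr12:1025749-1025804, in the called LSV) rose with PMA from 11.6% to 57.7%. Unstimulated cells had 23.1% in control and 42.7% in depleted cells. The mean over both LSVs that list this part was lower, 9.2% in control and 37.4% in depleted cells with PMA. The listed part of intron 4 (chr12:1039053-1039095) fell with PMA from 46.6% to 13.1%, and stood at 29.1% and 23.3% in unstimulated control and depleted cells. So parts of 2 introns of 1 gene changed in opposite directions on depletion with PMA. RAD51D, a homologous recombination gene, had a junction across intron 4 (chr17:33434141-33434385) that fell with PMA (94.8% in control and 63.0% in depleted cells), while without PMA it stood at 86.3% and 80.3%. BRCA2, BRIP1, PALB2, RAD51C and RAD54L were not called, and their highest probability in the authors' deposited table was 0.474, for BRIP1 with PMA.

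In end joining, LIG4 and POLL were called with PMA, each in an LSV near the start of the gene that was listed only in that state. POLL, a polymerase that fills gaps at broken ends, had its most used first junction (chr10:103347163-103347961) fall from 60.7% to 12.1%, while the shares of 2 alternatives from the same region were 16.8% and 21.6% in control and 43.0% and 44.4% in depleted cells. Exons of the opposite-strand gene DPCD lie over that stretch, and without LSVs under opposite-strand exons POLL was not called (0.189 in the authors' deposited table). LIG4, the ligase of end joining, had a short junction (chr13:108866958-108867054) fall from 32.2% to 2.6%. POLQ, the polymerase of microhomology-mediated joining, reached 0.924 with PMA in the authors' deposited table. Its junction across intron 24 (chr3:121179081-121186366) stood at 61.4% in unstimulated control, 66.4% in unstimulated depleted, 92.0% in PMA control and 64.3% in PMA depleted cells, with PMA control alone high. XRCC4, the partner of LIG4, had 1 LSV and no probability above 0.000195 in that table.

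Excision, mismatch and translesion repair had 16 listed members. No member of these was called without PMA (6.20% of all genes), and 1 was with PMA (10.6% of all genes). MUTYH, the glycosylase that removes adenine opposite oxidised guanine, had a called LSV with PMA. In it the listed part of intron 5 (chr1:45798632-45798724) rose from 19.7% to 52.4%, against 28.5% in control and 36.9% in depleted cells without PMA. The mean over both LSVs that list this part was 17.3% in control and 41.3% in depleted cells with PMA. A listed part of its first intron (chr1:45805836-45805874, 39 nt) differed the opposite way in the 2 states without a call in either. It stood at 76.0% in unstimulated control, 54.3% in unstimulated depleted, 57.6% in PMA control and 82.1% in PMA depleted cells. Exons of the opposite-strand gene TOE1 lie over that intron, and whether they lie over this part was not checked. PMS1, of mismatch repair, reached 0.923 with PMA in the authors' deposited table, at a junction with 94.9% in control and 69.2% in depleted cells. Among the nucleotide excision genes ERCC1, ERCC2, ERCC5 and XPC the highest probability there was 0.385, for ERCC1, and for the translesion polymerases POLH and POLK 0.696, for POLK without PMA.

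**Figure D3:**
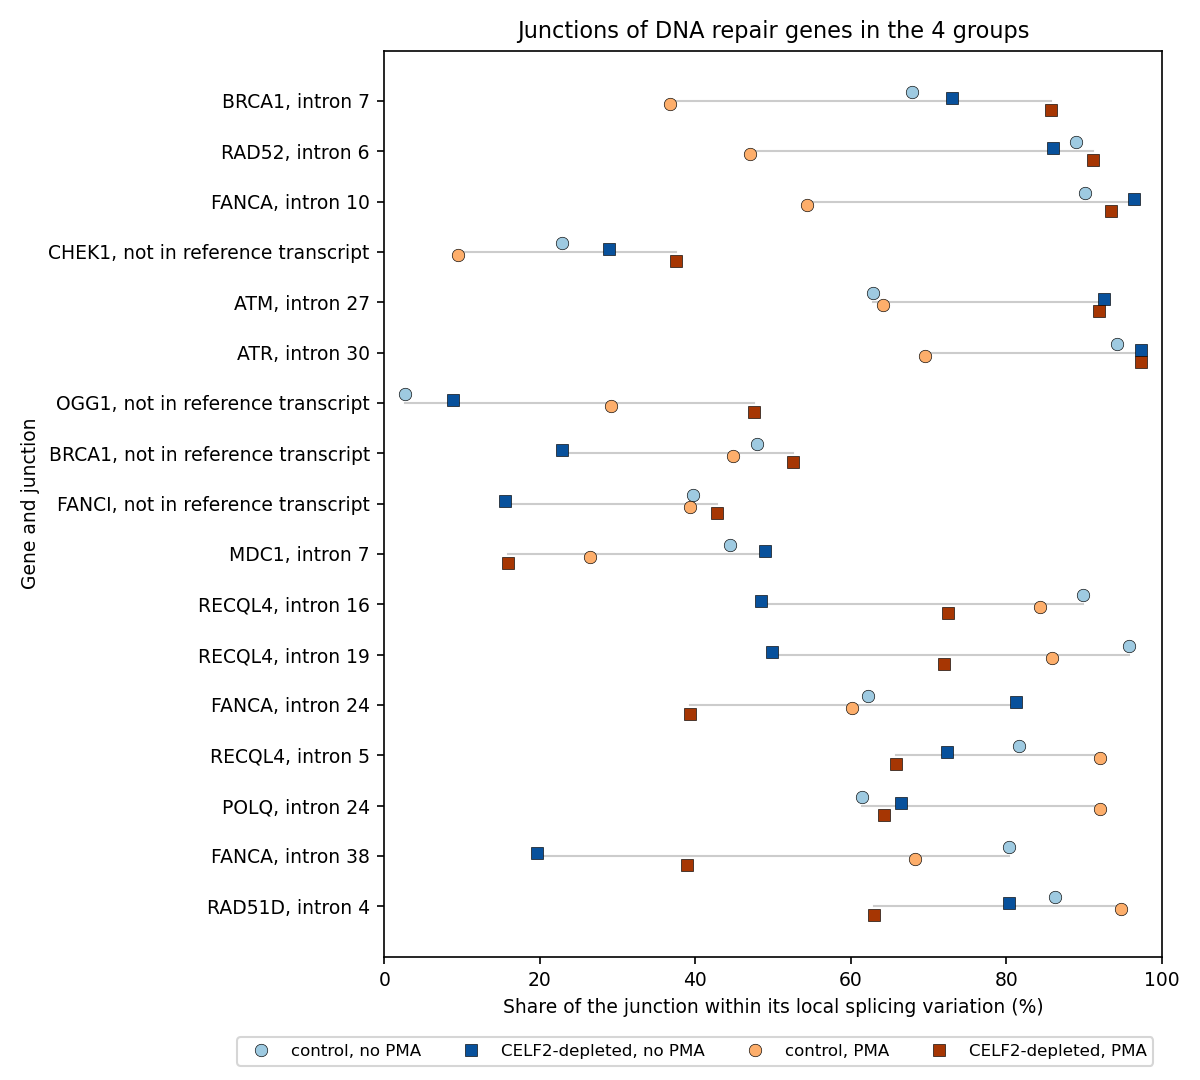
Share in percent (x axis) of 17 junctions of member genes listed in both tables, 1 row per junction: each gene's largest difference in a contrast, shown if among the 5 largest genes there or if called and among the 13 largest. They are ordered by the difference between depleted and control cells with PMA. Circles are control and squares depleted cells, blue without and orange to brown with PMA. PMA control cells (light orange) are the lowest group in BRCA1 intron 7, RAD52 intron 6, FANCA intron 10, ATR and CHEK1. They are the highest in POLQ, RAD51D and RECQL4 intron 5, whereas in ATM both depleted groups stand together.

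Retained introns, read apart from junctions, differed mostly upwards on depletion, and most of that came from 2 genes. Of 102 member introns listed in both tables, in 32 genes, 18 were higher and 2 lower by at least 10 points in depleted cells without PMA, where 4.86% of 15198 introns of all genes were higher and 2.97% lower. With PMA 25 were higher and 2 lower, against 6.19% and 5.48%. Without FANCA and RECQL4, 77 introns remained, of which 6 were higher and 1 lower without PMA and 11 were higher and 2 lower with PMA. At 20 points, the members had 12 higher and 1 lower without PMA (1.15% and 0.566% of all introns) and 10 higher and 1 lower with PMA (1.54% and 1.19%). Outside FANCA and RECQL4 these were 1 and 1 without PMA and 3 and 1 with PMA. By gene, taking single LSVs, 4 of 33 members had an intron past 20 points in either direction without PMA (8.12% of genes with an intron) and 6 of 32 with PMA (12.4%). Where all genes list an intron in 2 LSVs, the difference between depleted and control cells without PMA disagreed by a median of 1.0 point between them, and by more than 12.8 points in the top 5% of 11119 introns. Introns close to the ends of the scale included TP53BP1 and RAD54L with 1 each at 97.5% in every group.

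Between the states, the same direction of at least 20 points on depletion was found in FANCA, ATM and RECQL4, 3 of 49 members against 4.82% of all genes. The depletion contrasts share no library, and they are in different states. PMA against no PMA in control cells gave a junction difference of at least 20 points in 10 of 49 members (14.5% of all genes) and in depleted cells in 8 of 49 (10.9%), taking any junction and direction. OGG1, the glycosylase for oxidised guanine, was the only member in which the same junction differed by at least 20 points the same way in both PMA contrasts, against 2.25% of all genes. That junction (chr3:9798500-9823197) stood at 2.7% in unstimulated control, 8.8% in unstimulated depleted, 29.2% in PMA control and 47.6% in PMA depleted cells. MDC1, a scaffold at broken ends, passed 20 points in depleted cells only, with 48.9% unstimulated and 15.9% with PMA at its intron 7 (chr6:30676134-30679189), and 44.4% and 26.4% in control cells. Introns differed by at least 20 points with PMA in 1 of 32 members in control cells (7.00% of genes with an intron) and in 4 of 32 in depleted cells (6.20%).

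PMA control cells were most often the single group apart. A junction in which 1 group lay at least 20 points from each of the others, while those 3 lay within 10 points of each other, was found in 5 members for PMA control cells (ATR, BRCA1, FANCA, POLQ and RAD52), against 3.29% of all genes. For unstimulated depleted cells there were 3 (BRCA1, FANCI and RECQL4; 1.09%), for PMA depleted cells 2 (FANCA and MUTYH; 1.47%), and for unstimulated control cells 1 (FANCC; 0.856%). In such junctions the same PMA control value enters both the depletion contrast with PMA and the PMA contrast in control cells, so that these 2 differences are not independent of each other. Of the 10 members called with PMA, ATR, FANCA and RAD52 have such a junction among their called ones; that of BRCA1 (chr17:41243049-41243452) was not called.

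The other genes of the pathway were read from a list of 112, of which 106 were listed in each state. Without PMA 12 of them had a called LSV, 11.3% against the 6.20% of all genes: C1orf86, DDB2, EME1, FAM175A, MNAT1, MSH5, PARP3, POLI, RAD17, RAD51AP1, RAD9A and XRCC3. With PMA there were 17, 16.0% against 10.6%: APEX1, C1orf86, EME1, ERCC3, FANCE, GTF2H3, MSH5, NEIL1, NEIL2, POLM, RAD1, RAD51AP1, RBBP8, REV1, STRA13, TOPBP1 and UVSSA. EME1, a subunit of a nuclease that resolves recombination intermediates, had 1 junction rise in both states, from 57.9% to 85.4% without PMA and from 36.8% to 77.1% with PMA. XRCC3, a homologous recombination gene, had a junction fall from 82.5% to 47.7% without PMA, and NEIL1, a base excision glycosylase, one from 75.5% to 30.3% with PMA. In RAD9A, part of the checkpoint clamp, an intron rose from 50.7% to 77.5% without PMA. Where a junction and an intron of an LSV changed equally, the junction was the one read. How many of these called changes involve a retained intron was therefore not counted.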

How the data were processed

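Per the submitters' processing notes, reads were aligned with STAR 2.5.1b to hg19. The tables are splicing tables in the MAJIQ and VOILA layout, per the file headers, and the sources used here do not state its settings. The authors deposited, per LSV and group, expected percent selected indices (fractions, printed as percent), an expected change and a posterior probability of 20 points or more, from both libraries of a group together; 0 further columns of single samples were used or left over. Shares were split by junction and intron in Python 3.11.15 with pandas 2.3.3. Introns shared by LSVs were averaged, and differences were subtracted between groups. Only the counting of differences of at least 20 points was tried on simulated data, and the other steps were not. An LSV was called at 0.95. Intron numbers and opposite-strand exons come from GENCODE 29 (GRCh38), joined by gene and junction span with no coordinates converted: 946 of 1259 member junctions matched. An intron listed only in part took both from a junction across it. Coordinates are hg19, as in the files. Genes named are members called in either state, changed by 20 points in both depletion or both PMA contrasts, or among the 5 largest differences of a contrast, and called genes of the list of other repair genes; FANCC, ZNF276, CELF2 and the uncalled members given with their highest probability were added after their values were seen. The members and lists were chosen with earlier results of these data known. Alternatives were other thresholds, subsets of LSVs and another choice of LSV per intron.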

Additional observations from a re-analysis of the deposited data

How the results depend on the processing

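No paired analysis was possible because each deposited value pools both libraries of a group, and for the same reason leaving out a library was not run. The cause of a shift was not tested unless the setting itself leaves out LSVs. Members called on depletion numbered 5 without PMA and 10 with PMA; shares of all genes follow in parentheses. They were 9 and 17 (13.7% and 19.9%) with an expected change of at least 20 points in place of the probability, and 3 and 2 (2.49% and 4.58%) from LSVs of 2 junctions. They were 1 and 6 (4.50% and 7.48%) without LSVs that list a retained intron, and 3 and 4 (3.49% and 6.96%) from source LSVs. Without LSVs that hold a de novo junction they were 0 and 5 (2.86% and 4.99%), 3 without PMA from LSVs listed in both tables (5.56%), and at a probability of 0.99 they were 5 with PMA (6.98%). Members changed the same way by depletion in both states numbered 3. They were 11 at 10 points (20.6%), 0 at 30 points (1.20%) and 0 without de novo LSVs (2.39%). Without retained introns they were 1 (3.57%), and from source LSVs 1 (3.06%). Members changed by PMA in both control and depleted cells numbered 1. Their count was 8 at 10 points (14.8%) and 0 at 30 points (0.304%). It was also 0 without de novo LSVs (0.976%), with 2 junctions (0.919%) and from target LSVs (1.48%). For PMA in control cells, with 10 members, the counts were 26 at 10 points (41.6%) and 4 at 30 (4.32%). They were 5 without de novo LSVs (7.21%), 5 with 2 junctions (6.22%) and 4 from source LSVs (9.24%). For PMA in depleted cells, with 8 members, they were 28 at 10 points (38.9%) and 3 at 30 (2.77%). Other counts there were 2 without de novo LSVs (5.04%), 3 with 2 junctions (4.58%), 4 without retained introns (8.06%) and 5 from target LSVs (7.05%). The counts over all genes thus moved too. Introns at 20 points instead of 10 were 1 lower without PMA, and 10 higher and 1 lower with PMA. Leaving out LSVs under opposite-strand exons, an alternative chosen after seeing the data, left 4 and 9 called members. The remaining counts stayed within 1.5 times of those reported.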
